A study of Mus musculus with 15 samples.

Results

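Wild-type retinal microglia were compared between eyes injected with microbeads and eyes that received a sham injection. The libraries were chosen by their labels, which put 7 of the 15 libraries of the series in these groups: 4 wildtype sham-injected and 3 wildtype microbead-injected retinas. The mice were C57BL/6 and 12 weeks old, with no engineered allele or drug named for either group. The 8 Apoe-/- libraries entered only the estimate of the spread between libraries.

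Microglia are the resident macrophages of the retina. Microbeads placed in the front of the eye block the outflow of aqueous humour and raise the pressure inside the eye, which models glaucoma. In the homeostatic state microglia express receptors for surveying the tissue, such as P2ry12 and Tmem119. In a neurodegenerative state, known as MGnD or DAM and driven through the receptor Trem2 and the lipid carrier Apoe, they turn on genes for phagocytosis, lysosomal digestion, lipid handling and antigen presentation.

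From each retina 100 to 600 cells were sorted as Fcrls+, CD11b+ and Ly6c-, and lysates of 100 to 300 cells in 5 µl were sequenced as bulk RNA. Whether the numbered retinas belonged to different mice is not stated in the labels, so the p-values measure the spread between these libraries, part of which may be technical. Fcrls marks the cells that were sorted, so cells that had lost it would not be in the libraries. In bulk RNA, fewer cells of a type and less RNA per cell cannot be told apart. The time between injection and collection is not given in the sources used here.

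The 7 libraries held 505283 to 714670 reads assigned to genes. Reads from 12 gene models of the major satellite repeat took 60.1, 62.7, 55.9 and 66.6% of the reads in sham libraries 1 to 4. In microbead libraries 1 to 3 they took 53.5, 40.8 and 41.2%. All microbead shares lay below all sham shares, and the difference of the means was -16.1 percentage points (exact two-sided permutation p = 0.0286, the smallest that 35 arrangements allow). Levels are given in CPM, with library sizes scaled by TMM, a method that assumes most genes keep their level. On this scale 1 read was worth 1.20 to 2.15 CPM in sham and 1.00 to 1.45 CPM in microbead libraries, so levels of a few CPM rest on single reads. Of 15 general markers of microglia and myeloid cells, all were tested, and their summed level was 14768 to 17508 CPM in sham and 14341 to 17116 CPM in microbead libraries.

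2 sham libraries and 1 microbead library stood apart. Sham libraries 3 and 4 held the most rod photoreceptor transcripts, with summed levels of 2955 and 3488 CPM over 21 rod markers, against 847 and 840.4 CPM in sham libraries 1 and 2. Microbead library 2 held the highest level of immediate early genes, which cells also switch on while tissue is dissociated: 12246 CPM, against 2711 and 7025 CPM in microbead libraries 1 and 3 and 1326 to 5786 CPM in sham libraries.

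Microbead retinas held higher levels of 13 genes, 8 of them on a list of genes of the neurodegenerative state, and no gene was called lower by edgeR. That list was chosen with earlier results of these data known, so the overlap is a description and not independent support. Of 6521 genes tested, these 13 were called higher at an adjusted p of 0.05 (0.199% of genes) and 0 lower (0%), and 513 had an unadjusted p under 0.05. Counts of unadjusted p given below for gene lists are to be read against these 513 of 6521 genes. DESeq2 called 36 genes (0.552%), 33 of them higher (0.506%) and 3 lower (0.046%), and 10 genes were called by both tools. In all 13 genes the 3 microbead libraries lay above the 4 sham libraries, as in 6.32% of all genes tested. For genes with hardly any reads in sham, the low-count filter favoured this order. Microbead library 2 was the highest library in 10 of the 13, library 3 in 2 and library 1 in 1.

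The number of calls rested on single libraries. Without microbead library 2 no gene was called by edgeR and 271 had an unadjusted p under 0.05, and without microbead libraries 1 and 3 there were 29 and 9 calls. Without sham libraries 1, 2, 3 and 4 in turn there were 1, 4, 2 and 4 calls. Lgals3 was called in 6 of these 7 fits and Apoe in 5. The log2 fold change without microbead library 2 was 4.97 for Lgals3 and 2.40 for Apoe, with an edgeR adjusted p of 0.0526 for each.

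**Figure D1:**
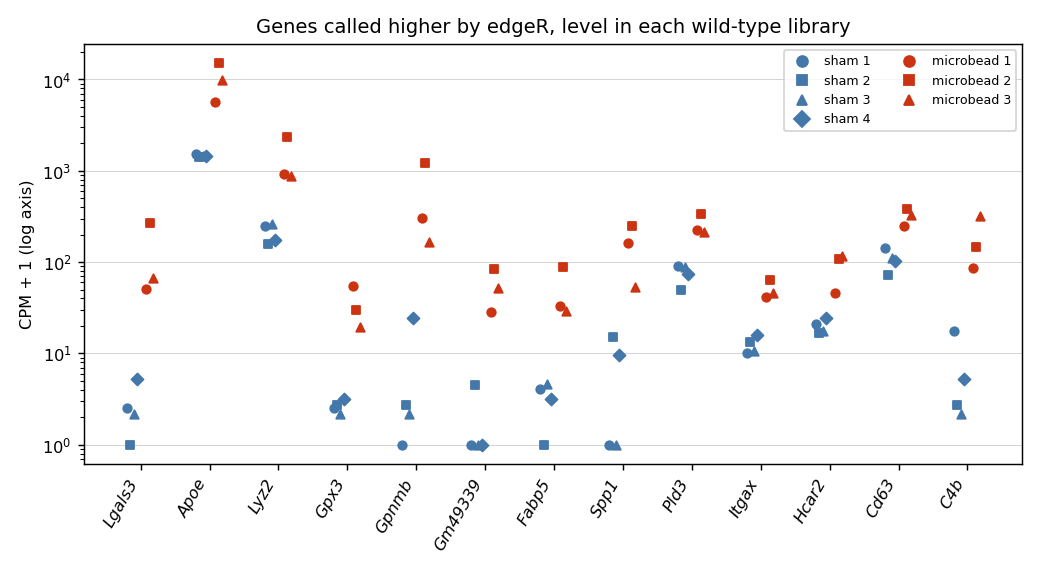
CPM plus 1 (log axis) of the 13 genes called higher by edgeR in each wild-type library, sham in blue and microbead in red, with marker shapes for the library numbers, genes ordered by p. The 3 microbead points lie above the 4 sham points for each gene, and microbead library 2 (square) is the highest for 10 of the 13.

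The promoters of the called genes are shown where they hold one of the motifs searched for, since these genes were called in the same direction. Promoter windows of RefSeq (build GRCm38.p6, 250 bases before to 50 bases after the annotated start) were found for 9 of the 13 genes, in 12 windows. Searched on both strands were TCACGTG, an E-box of the MiT/TFE factors of lysosomal genes, GAGGAAGT, an ETS site of the type bound by the myeloid factor PU.1, and TGANTCA, the AP-1 site. None of the 3 motifs overlapped another in the matches found. The windows follow from 250 bases before to 30 bases after the start, 5′ to 3′ on the plus strand, with the match in capitals.
Gpnmb: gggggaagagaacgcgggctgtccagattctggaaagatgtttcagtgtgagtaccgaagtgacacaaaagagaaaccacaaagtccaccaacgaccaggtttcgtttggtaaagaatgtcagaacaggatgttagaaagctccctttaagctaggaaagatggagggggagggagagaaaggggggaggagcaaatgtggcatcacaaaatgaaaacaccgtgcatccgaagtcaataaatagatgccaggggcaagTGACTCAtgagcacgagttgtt
Itgax: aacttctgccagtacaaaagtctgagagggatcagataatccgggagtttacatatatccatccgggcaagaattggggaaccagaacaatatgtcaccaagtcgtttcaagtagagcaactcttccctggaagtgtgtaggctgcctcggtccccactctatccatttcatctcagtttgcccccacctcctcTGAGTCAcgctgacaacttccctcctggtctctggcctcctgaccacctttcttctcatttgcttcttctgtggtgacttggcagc
Spp1: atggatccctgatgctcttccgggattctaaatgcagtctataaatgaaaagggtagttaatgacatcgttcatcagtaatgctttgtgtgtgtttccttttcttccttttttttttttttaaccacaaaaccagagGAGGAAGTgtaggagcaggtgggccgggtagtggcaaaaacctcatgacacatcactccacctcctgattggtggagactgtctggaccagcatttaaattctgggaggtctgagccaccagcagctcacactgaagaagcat
These windows are chr6:49036268-49036547 for Gpnmb, chr7:128129300-128129579 for Itgax and chr5:104434861-104435140 for Spp1. An AP-1 match starts 8 bases after the RefSeq start of Gpnmb and 56 bases before that of Itgax, and an ETS match starts 113 bases before that of Spp1. RefSeq starts can differ from the gene coordinates given below, which for Gpnmb begin after the match. AP-1 matches were found in 2 of the 12 windows, in 5.39% of 6536 windows of tested genes and in 7.81% of all 32851 windows. The ETS letters were in 1 of the 12 windows, in 3.76% of windows of tested genes and in 3.20% of all windows. The E-box letters were in 0 of the 12, in 6.62% of windows of tested genes and in 3.77% of all. With 12 windows, several from the same gene, these shares cannot be ranked, and a match is a description of letters.

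Apoe, which carries lipids between cells and is itself a driver of the neurodegenerative state, had the highest level of the called genes. The gene (ENSMUSG00000002985, chromosome 7, 19696109 to 19699188, minus strand, mm10) had 1520.3, 1407, 1469 and 1434 CPM in the sham libraries and 5639.8, 15121 and 9770.4 CPM in the microbead libraries. The sham libraries were nearly alike, and the microbead libraries, all above them, differed more from each other. Apoe rose by a log2 fold change of 2.80 (SE 0.41, edgeR adjusted p = 0.0045). In the authors' deposited gene TPM, which are per length, Apoe was at 341 to 553 in sham and 2241 to 8563 in microbead libraries. In the same table Lyz2 (263 to 931 TPM) and Cd63 (99.5 to 215 TPM) came next among the called genes by their lowest microbead value.

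Fabp5, on the list of fatty acid handling genes, and Gpnmb, on none of the lipid lists, were also called. Fabp5, a carrier of fatty acids inside the cell (ENSMUSG00000027533, chromosome 3, 10012548 to 10016607, plus strand), had 3.04, 0, 3.6 and 2.15 CPM in sham and 31.9, 87.0 and 28.0 CPM in microbead libraries. It rose by 4.28 on the log2 scale (SE 0.71, edgeR adjusted p = 0.0136). Gpnmb, a membrane glycoprotein of lipid-laden phagocytes (ENSMUSG00000029816, chromosome 6, 49036546 to 49070929, plus strand), had 0, 1, 1 and 11 reads in sham and 209, 1218 and 125 reads in microbead libraries. Sham library 4 stood above the other sham libraries and far below the microbead libraries. Gpnmb rose by 6.62 (SE 1.12, edgeR adjusted p = 0.0102), and DESeq2 did not call it (adjusted p = 0.084). Without sham library 4 the edgeR value stayed past the threshold, and without microbead library 2 it was 5.35 (adjusted p = 0.0987).

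Lgals3 and Spp1 encode secreted proteins of activated phagocytes. Lgals3 encodes galectin-3, a sugar-binding protein that gathers on ruptured lysosomes (ENSMUSG00000050335, chromosome 14, 47367751 to 47386160, plus strand). It had 1, 0, 1 and 2 reads in the sham libraries and 34, 269 and 49 reads in the microbead libraries. It was thus close to the limit of detection with sham injection and present in all 3 microbead retinas. Lgals3 rose by 6.16 (SE 0.81, edgeR adjusted p = 0.00186; DESeq2 adjusted p = 8.5e-07), the smallest p of all genes with edgeR. The pooled read rate was 91.2-fold higher with microbeads, with an exact 95% interval of 35.3 to 337 that covers counting error only. Spp1, osteopontin (ENSMUSG00000029304, chromosome 5, 104435118 to 104441050, plus strand), had 0, 8, 0 and 4 reads in sham and 110, 249 and 39 reads in microbead libraries. Reads were seen in 2 of the 4 sham libraries and in all microbead libraries. Spp1 rose by 4.89 (SE 0.82, edgeR adjusted p = 0.0136), and DESeq2 gave an adjusted p of 0.493.

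Of genes with lysosomal products, Lyz2, Pld3 and Cd63 were called, of which Lyz2 is not on the list of lysosomal genes used below. Lyz2, which encodes lysozyme (ENSMUSG00000069516, chromosome 10, 117277331 to 117282321, minus strand), had 249, 156, 261 and 172 CPM in sham and 933, 2332 and 874 CPM in microbead libraries, a rise of 2.72 (SE 0.46, edgeR adjusted p = 0.0102). Lyz2 has the close copy Lyz1, so the assignment of its reads is uncertain. Pld3, a nuclease of the lysosome that cuts single-stranded DNA and RNA (ENSMUSG00000003363, chromosome 7, 27532000 to 27553218, minus strand), had 89.6, 48.9, 86.3 and 73.1 CPM in sham and 226, 338 and 212 CPM in microbead libraries. The groups were apart, with sham library 2 lowest. Pld3 rose by 1.79 (SE 0.33, edgeR adjusted p = 0.0179). Cd63, a tetraspanin of late endosomes (ENSMUSG00000025351, chromosome 10, 128900989 to 128912822, plus strand), had 141, 71.6, 110.3 and 101 CPM in sham and 249, 379 and 329 CPM in microbead libraries, a rise of 1.59 (SE 0.31, edgeR adjusted p = 0.0332).

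The called receptors were the integrin gene Itgax and Hcar2. Itgax, which encodes CD11c, a mark of dendritic cells and of activated microglia (ENSMUSG00000030789, chromosome 7, 128129547 to 128150657, plus strand), had 9.11, 12.2, 9.59 and 15.1 CPM in sham and 40.6, 63.0 and 45.4 CPM in microbead libraries. It rose by 2.13 (SE 0.39, edgeR adjusted p = 0.0179). Itgax was the only called gene whose read density was not above 3 times that of 1499 olfactory, vomeronasal and taste receptor genes, which are taken as silent in microglia. Hcar2, which senses hydroxybutyrate and niacin (ENSMUSG00000045502, chromosome 5, 123863570 to 123865499, minus strand), had 19.7, 15.7, 16.8 and 23.7 CPM in sham and 44.9, 106 and 115 CPM in microbead libraries. Microbead library 1 was nearest to the sham libraries. Hcar2 rose by 2.23 (SE 0.43, edgeR adjusted p = 0.0262).

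C4b, Gpx3 and the predicted gene Gm49339 complete the called genes. C4b, a complement component that tags targets for removal (ENSMUSG00000073418, chromosome 17, 34728380 to 34743882, minus strand), had 16.7, 1.75, 1.2 and 4.3 CPM in sham and 85.5, 146 and 319 CPM in microbead libraries, a rise of 4.89 (SE 0.98, edgeR adjusted p = 0.0362). It has the close copy C4a, and its reads could come from either. Gpx3, a secreted glutathione peroxidase (ENSMUSG00000018339, chromosome 11, 54902453 to 54910377, plus strand), had 1 read in each of the 4 sham libraries and 37, 29 and 14 reads in the microbead libraries. It rose by 4.22 (SE 0.71, edgeR adjusted p = 0.0102) and was the called gene with its highest level in microbead library 1. Gm49339 (ENSMUSG00000062593, chromosome 10, 51480612 to 51496613, plus strand) had 0, 2, 0 and 0 reads in sham and 19, 84 and 38 reads in microbead libraries. Its pooled rate was 73.1-fold higher with an exact 95% counting interval of 19.9 to 609 (edgeR log2 fold change 5.75, SE 0.97, adjusted p = 0.0102), and DESeq2 did not call it (adjusted p = 0.0829). It overlaps the inhibitory receptor genes Lilr4b and Lilrb4a, so the gene of origin of these reads is uncertain. Lilrb4a itself had 24.3, 17.5, 20.4 and 17.2 CPM in sham and 23.2, 113 and 40.0 CPM in microbead libraries (1.57, edgeR adjusted p = 0.338).

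**Figure D2:**
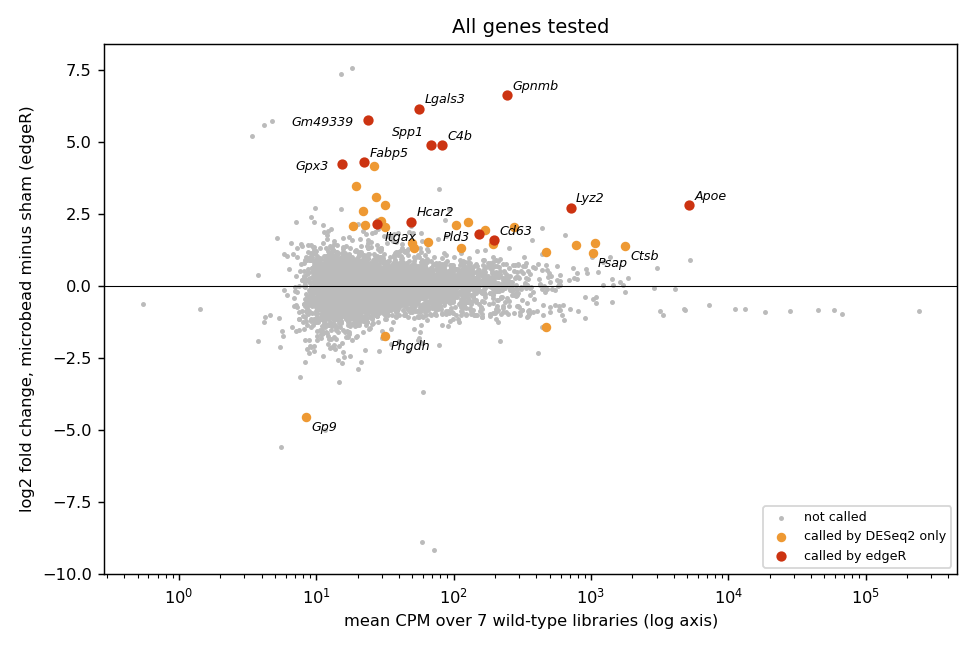
Log2 fold change of microbead minus sham from edgeR against mean CPM over the 7 wild-type libraries (log axis) for the 6521 genes tested. The 13 genes called by edgeR (red, named) all lie above 0, from Cd63 at 1.59 to Gpnmb at 6.62, and genes called by DESeq2 only (orange) include 3 below 0, of which Gp9 and Phgdh are named.

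A further 12 genes had an edgeR adjusted p between 0.05 and 0.06, all higher with microbeads and all called by DESeq2. Cst7, an inhibitor of lysosomal cathepsins, had 3.04, 0, 7.19 and 0 CPM in sham and 86.9, 44.0 and 44.0 CPM in microbead libraries (4.16, edgeR adjusted p = 0.0515; DESeq2 0.00775). Microbead library 1, not library 2, held the most Cst7. Cd74, the invariant chain of MHC class II, had 112, 68.1, 71.9 and 53.8 CPM in sham and 146, 504 and 232 CPM in microbead libraries (1.94, edgeR adjusted p = 0.0543; DESeq2 0.00875). Ftl1, a ferritin subunit that stores iron, had 674, 561, 644 and 563 CPM in sham and 1188, 2650.3 and 1268 CPM in microbead libraries (1.48, edgeR adjusted p = 0.0563; DESeq2 0.00597).

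The chemokine gene Cxcl16 (1.51) was at 34.4 to 39.5 CPM in sham and 76.8 to 126 CPM in microbead libraries. Sqstm1, the autophagy adaptor p62 (1.43), was at 103 to 127 and 164 to 457 CPM. The glycogenin gene Gyg (2.11) was at 3.49 to 13.2 and 24 to 63.0 CPM, and the secreted protease gene Htra3 (2.06) at 10.5 to 19.4 and 28.0 to 104 CPM. For these 4 genes too the microbead libraries lay above the sham libraries, as in 6.32% of all genes. They were picked by their small p, which favours this order. Fam20c, a kinase of secreted proteins (2.06), was at 30.7 to 35 CPM in microbead libraries, the narrowest spread of the 12, against 4.8 to 10.6 CPM in sham; its read density was not above 3 times that of the receptor genes. The others were the fatty acid hydroxylase gene Cyp4f18 (3.07), the receptor gene Cd244a (3.47), the MHC class I gene H2-Q7 (1.32) and the RNA editing gene Apobec1 (1.47).

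Described by a list of 45 neurodegenerative genes, chosen with earlier results of these data known, most measured members were higher with microbeads. Of 37 tested, 33 were above 0, and the median log2 fold change was 1.21, against 49.1% positive and a median of -0.011 over all genes tested. Members near 0 reads in sham, such as Lgals3, could reach the low-count filter in wild-type libraries only through the microbead libraries. This favours positive values and separate groups among the tested members. edgeR called 8 higher (0.199% of all genes), which were Lgals3, Apoe, Lyz2, Gpnmb, Fabp5, Spp1, Itgax and Cd63. DESeq2 called 10 (0.552% of all genes). The 3 microbead libraries exceeded every sham library in 24 of the 37 (6.32% of all genes) and lay below every sham library in 0 (4.22% of all genes). The list's summed level was 10575 to 12665 CPM in sham and 22113, 41318 and 27232 CPM in microbead libraries. Without microbead library 2 the median was 0.74 and no member was called by edgeR, and without sham libraries 3 and 4 together the median was 1.49 with no member called. Immediate early genes, too, were highest in microbead library 2, at the sums given above, and their part in the result was not tested.

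The 8 members that did not pass the filter on low counts are given by their reads. Vim, an intermediate filament gene also used as a marker of Müller glia, had 0, 1, 4 and 0 reads in sham and 10, 170 and 15 reads in microbead libraries. The transcription factor gene Bhlhe40 had 0, 0, 1 and 1 reads in sham and 7, 40 and 13 in microbead libraries. Lgals1, galectin-1, had 0, 1, 0 and 0 reads in sham and 4, 29 and 3 in microbead libraries. For these 3 genes most reads came from microbead library 2. Ank, Ctse, Apoc1, Ch25h and Cox6a2 had at most 11 reads in any of the 7 libraries.

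Most homeostatic genes had lower values with microbeads in the edgeR fit, with no member called by edgeR or DESeq2. Of 47 tested members 31 were below 0 (median log2 fold change -0.14), against 49.1% above 0 and a median of -0.011 over all genes. On log2 of TPM plus 1, relative to the median over all genes, the list median was -0.01, with 2 members called higher in tests against 0. On log2 of TPM plus 0.1 it was -0.15 with 0 called. Both edgeR and DESeq2 called 0, with 9 at an unadjusted edgeR p under 0.05 (8 lower, 1 higher). Over all genes, 513 of 6521 had such a p. All microbead libraries lay below all sham libraries in 12 of the 47, where 4.22% of all genes did so, and above them in 2 (6.32% of all genes). The summed level of the list was 27124 to 31853 CPM in sham and 22005 to 26350 CPM in microbead libraries, which did not overlap. Cst3, which encodes the protease inhibitor cystatin C, made up 26.3% of that sum. Without Cst3 the sums were 19579 to 22694 CPM in sham and 17621 to 20937 CPM in microbead libraries, which overlapped.

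Among the members, P2ry12, the receptor by which microglial processes sense ATP and ADP, had 724, 603, 747 and 733 CPM in sham and 416, 353 and 532 CPM in microbead libraries (-0.70, SE 0.32, edgeR adjusted p = 0.612). Gpr34, a receptor for lysophosphatidylserine, had 447, 315, 308 and 327 CPM in sham and 172, 176 and 189 CPM in microbead libraries (-0.96, SE 0.34, edgeR adjusted p = 0.475). The microbead values of Gpr34 were close together and well under the lowest sham library. The fructose transporter gene Slc2a5 had 185, 162, 192 and 144 CPM in sham and 81.1, 58.0 and 120.0 CPM in microbead libraries (-0.99, SE 0.33, edgeR adjusted p = 0.442). Siglech (-0.66), P2ry13 (-0.53), Tmem119 (-0.45), Cst3 (-0.68) and the leukotriene synthase gene Ltc4s (-0.80) also had all microbead libraries below all sham libraries. Lag3, an inhibitory receptor gene counted in this list, went the other way, with 86.6, 126, 98.3 and 114 CPM in sham and 197, 285 and 269 CPM in microbead libraries (1.24, SE 0.41, edgeR adjusted p = 0.454).

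Other genes with lower levels were led by Gp9, a platelet glycoprotein gene, and Phgdh, the first enzyme of serine synthesis. Gp9 had 16.7, 21.0, 15.6 and 4.3 CPM in sham and 0, 0 and 1.33 CPM in microbead libraries, or 38 reads against 1. The pooled rate was 36.7-fold higher in sham, with an exact 95% counting interval of 6.19 to 1486 (edgeR adjusted p = 0.0922, DESeq2 0.0359). Phgdh had 38, 54.2, 56.4 and 32.3 CPM in sham and 10.1, 12.0 and 18.7 CPM in microbead libraries (-1.73, SE 0.43, edgeR adjusted p = 0.111; DESeq2 0.0441). Hpgd, which inactivates prostaglandins, had 85.1, 83.9, 81.5 and 66.7 CPM in sham and 47.8, 15 and 16 CPM in microbead libraries (-1.62, SE 0.43, edgeR adjusted p = 0.187). Microbead library 1 lay between the sham libraries and the other microbead libraries. Numb, an inhibitor of Notch signalling, had 98.7, 96.1, 81.5 and 60.2 CPM in sham and 33.3, 34.0 and 44.0 CPM in microbead libraries (-1.18, SE 0.35, edgeR adjusted p = 0.329).

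**Figure D3:**
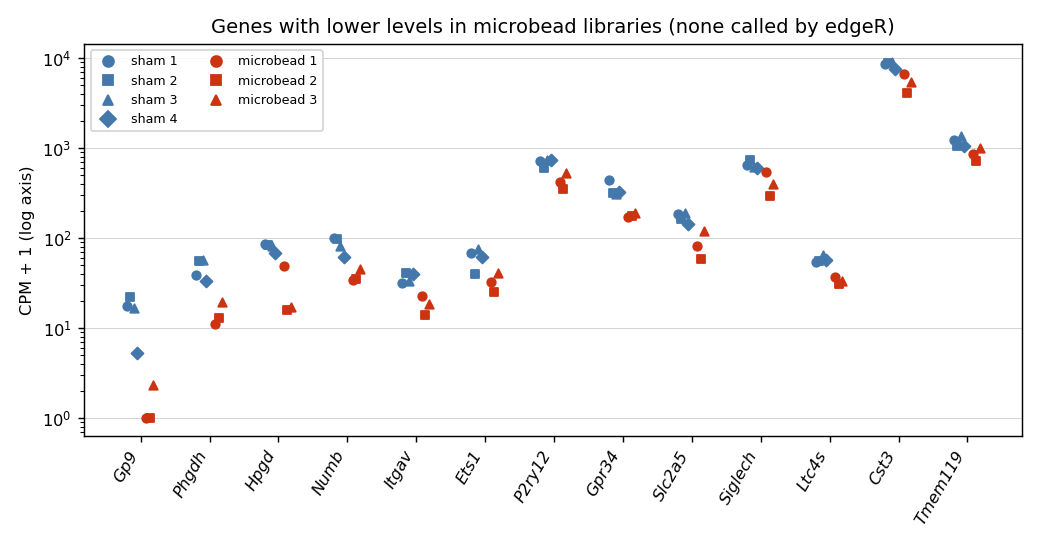
CPM plus 1 (log axis) of 13 genes with lower levels in microbead (red) than in sham (blue) libraries, none called by edgeR, with marker shapes for the library numbers. Gp9 is at 0 CPM in microbead libraries 1 and 2, and Gpr34 has microbead values of 172 to 189 CPM under sham values of 308 to 447 CPM.

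Most lysosomal genes had higher values with microbeads, and few were called. Of 53 tested hydrolases and membrane proteins 47 were above 0 (median 0.45); edgeR called 2 (Pld3 and Cd63; 0.199% of all genes) and DESeq2 4 (0.552% of all genes). The 3 microbead libraries exceeded every sham library in 16 of the 53, as in 6.32% of all genes. The summed level of the list was higher in all 3 microbead libraries than in any sham library, but without its most abundant member, Ctsd, the sums were 16031 to 19993 CPM in sham and 19741 to 27274 CPM in microbead libraries, which overlapped. Ctsb, the protease cathepsin B, had 1148, 1015, 1197 and 809 CPM in sham and 1952, 3729 and 2477 CPM in microbead libraries (1.38, SE 0.33, edgeR adjusted p = 0.0956; DESeq2 0.00875). Psap, the precursor of the saposins that help break down sphingolipids, had 693, 615, 893 and 499 CPM in sham and 1114, 1967 and 1402 CPM in microbead libraries (1.15, SE 0.28, edgeR adjusted p = 0.111; DESeq2 0.00821). Ctsd, cathepsin D, had 4082, 3451, 4189 and 3598 CPM in sham and 6491, 8333 and 6345 CPM in microbead libraries (0.88, SE 0.28, edgeR adjusted p = 0.371). None of these 3 genes overlapped between the groups. Of 17 proton pump genes 15 were positive with a median of 0.41, 0 called by either tool and 2 at an unadjusted edgeR p under 0.05, among them Atp6v1a (1.45) and Atp6v0c (0.87). Over all genes, 513 of 6521 had such a p.

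The summed levels of class I and of class II antigen presentation genes were higher in all 3 microbead libraries than in any sham library. Of 24 class I genes 21 were positive (median 0.45), and in 10 all microbead libraries lay above the sham libraries, as in 6.32% of all genes. H2-D1 had 518, 480.5, 520.3 and 301 CPM in sham and 915, 1589 and 1111 CPM in microbead libraries (1.4, SE 0.34, edgeR adjusted p = 0.108; DESeq2 0.0119). H2-K1 was at 1.17 (DESeq2 adjusted p = 0.0238), H2-Q6 at 1.79 and B2m, the light chain of class I, at 0.60. Of 12 tested class II genes 8 were positive with a median of 0.18, and DESeq2 called 4 (0.552% of all genes): Cd74, H2-Aa, H2-Ab1 and H2-Eb1. H2-Ab1 had 150.4, 112, 104 and 98.9 CPM in sham and 249, 815 and 383 CPM in microbead libraries (2.05, SE 0.48, edgeR adjusted p = 0.0885; DESeq2 0.0119). H2-Aa (2.21) and H2-Eb1 (2.12) showed the same order of the 3 microbead libraries, with library 2 highest and library 1 lowest. edgeR called 0 genes of either class, with 7 of class I and 4 of class II at an unadjusted p under 0.05, all higher. Reads of class I genes can be shared between near-identical copies.

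Phagocytic receptor and lipid lists were mixed. Of 22 tested phagocytic genes 14 were positive with a median of 0.14. edgeR called 0 (3 at an unadjusted p under 0.05) and DESeq2 1 (0.552% of all genes), the receptor kinase gene Axl. Axl, which binds dead cells through Gas6, had 66.8, 47.2, 95.9 and 68.8 CPM in sham and 151, 219.9 and 145 CPM in microbead libraries (1.29, SE 0.32, edgeR adjusted p = 0.109; DESeq2 0.0238). Itgav, an integrin subunit that also binds dead cells and activates TGF-beta, went the other way, with 30.4, 40.2, 32.4 and 38.7 CPM in sham and 21.7, 13 and 17.3 CPM in microbead libraries (-1.03, SE 0.31, edgeR adjusted p = 0.33). Tyrobp, the signalling partner of Trem2, was at 402 to 453 CPM in sham and 534 to 619.9 CPM in microbead libraries (0.45, edgeR adjusted p = 0.716). Of 15 efflux genes 10 were positive (median 0.15), with Apoe the only call (edgeR called 0.199% of all genes). The exporter gene Abcg1 was at 1.25 and the lysosomal cholesterol carrier gene Npc2 at 0.74. Of 10 cholesterol synthesis and uptake genes 6 were negative (median -0.15, and 0.45 without sham libraries 3 and 4). Abcg1 was not above 3 times the receptor-gene density.

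**Figure D4:**
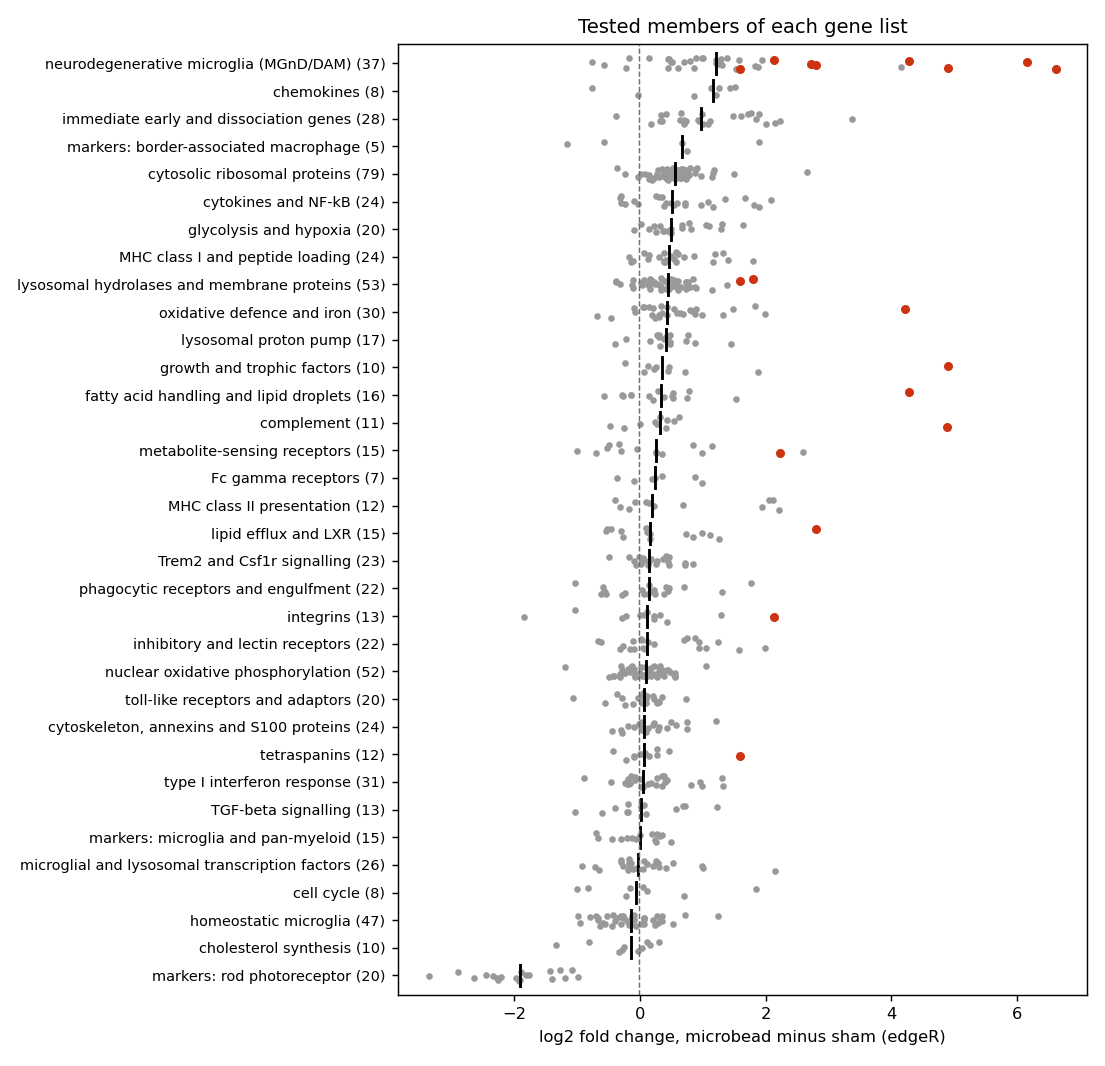
Log2 fold change of microbead minus sham from edgeR for the tested members of each list with at least 5 tested members (number in brackets). The mitochondrially encoded genes, which ranged from -9.18 to 1.19, are left out. Black bars are medians, red points are genes called by edgeR, and the dashed line is the median of all 6521 genes (-0.011). The neurodegenerative list has the highest median (1.21) and the rod markers the lowest (-1.92).

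The inflammatory genes Tnf and Nlrp3 were high in microbead libraries 2 and 3 and not in library 1. Of 24 tested cytokine and NF-kB genes 18 were positive (median 0.51) and edgeR and DESeq2 called 0, with 8 at an unadjusted edgeR p under 0.05, all higher. Tnf had 25.8, 6.99, 36.0 and 10.8 CPM in sham and 8.69, 147 and 109 CPM in microbead libraries (2.09, SE 0.70, edgeR adjusted p = 0.454). Microbead library 1 lay within the sham range for Tnf. Nlrp3 had 20.3, 67.0 and 78.7 CPM in microbead libraries against 21.3 to 28.8 CPM in sham, so library 1 was just under the lowest sham library. Of 8 tested chemokine genes 6 were positive with a median of 1.16, which was 0.52 without microbead library 2. Ccl5 had 10.6, 5.24, 9.59 and 6.45 CPM in sham and 21.7, 26.0 and 18.7 CPM in microbead libraries (1.42, edgeR adjusted p = 0.531). Of 31 type I interferon genes 17 were positive with a median of 0.04, close to all genes, with Lgals3bp at 1.3.

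Of 11 tested complement genes 8 were positive with a median of 0.31 and C4b alone called by both tools. Over all genes, edgeR called 0.199% and DESeq2 0.552%. C1qb, part of the first complement component, was at 1497 to 1870.4 CPM in sham and 1954 to 2090.0 CPM in microbead libraries (0.26, SE 0.24, edgeR adjusted p = 0.84), a small difference with no overlap. C3 had 1, 0, 1 and 0 reads in sham and 5, 34 and 17 in microbead libraries and was not tested. Of 7 Fc gamma receptor genes 5 were positive (median 0.23), and the inhibitory receptor gene Fcgr2b had 129, 135, 114 and 108 CPM in sham and 184, 197 and 289 CPM in microbead libraries (0.88, edgeR adjusted p = 0.454).

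Most genes of oxidative defence, glycolysis and the ribosome had higher values with microbeads. Of 30 tested oxidative defence and iron genes 26 were positive with a median of 0.43. Gpx3 was called by edgeR (0.199% of all genes) and Ftl1 as well by DESeq2 (0.552% of all genes). Fth1, the other ferritin subunit, had 649, 626, 947 and 630.1 CPM in sham and 972, 2073 and 1178 CPM in microbead libraries (0.98, edgeR adjusted p = 0.338). Of 20 glycolysis and hypoxia genes 19 were positive with a median of 0.49, 0 called by either tool and 6 at an unadjusted edgeR p under 0.05. Hif1a, the hypoxia factor, had 22.8, 22.7, 38.4 and 30.1 CPM in sham and 81.1, 59.0 and 70.7 CPM in microbead libraries (1.28, edgeR adjusted p = 0.149), with library 1 highest. Tpi1, an enzyme of glycolysis, had 60.8, 246 and 66.7 CPM with microbeads against 32.3 to 47.1 CPM in sham (1.63, edgeR adjusted p = 0.254). Of 52 nuclear genes of oxidative phosphorylation 30 were positive with a median of 0.09. Of 79 ribosomal protein genes 76 were positive with a median of 0.55, 38 had all microbead libraries above the sham libraries (6.32% of all genes), and 0 were called by edgeR or DESeq2, with 18 at an unadjusted edgeR p under 0.05.

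Among signalling genes, the adenosine receptor gene Adora1 had 9.11, 8.74, 3.6 and 6.45 CPM in sham and 18.8, 38 and 69.4 CPM in microbead libraries (2.59, edgeR adjusted p = 0.108; DESeq2 0.0442). The growth factor gene Igf1 had 3.04, 8.74, 4.8 and 4.3 CPM in sham and 29.0, 14 and 16 CPM in microbead libraries (1.87, edgeR adjusted p = 0.456). For both genes the groups did not overlap, at read densities not above 3 times that of the silent receptor genes. Gpr183, a receptor for oxysterols, was lower in all microbead libraries, with 22.7 to 31.0 CPM against 32.3 to 68.3 CPM (-1.01, edgeR adjusted p = 0.486). Of 23 genes of Trem2 and Csf1r signalling 18 were positive with a median of 0.14, and of 13 TGF-beta genes 7 with a median of 0.01. edgeR and DESeq2 called 0 members of the last 2 lists, with 3 and 2 at an unadjusted edgeR p under 0.05 (513 of all 6521 genes).

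The other lists had medians of -0.06 to 0.35. For the edgeR calls named among them, the share over all genes was 0.199%. Of 16 tested genes of fatty acid handling 11 were positive with a median of 0.33 and Fabp5 called; the lipid droplet coat gene Plin2 had 18.2, 17.5, 9.59 and 10.8 CPM in sham and 15.9, 76.0 and 28.0 CPM in microbead libraries (1.53, edgeR adjusted p = 0.329). Of 10 growth and trophic factor genes 9 were positive (median 0.35) with Spp1 called, and of 15 metabolite receptor genes 8 (median 0.25) with Hcar2 called. The median was 0.11 for 13 integrins, with Itgax called, and 0.06 for 12 tetraspanins, with Cd63 called. It was 0.11 for 22 inhibitory and lectin receptors, 0.06 for 20 toll-like receptor genes and 0.06 for 24 cytoskeleton, annexin and S100 genes. It was -0.04 for 26 transcription factors, -0.06 for 8 cell cycle genes and -0.05 for 12 mitochondrially encoded genes (range -9.18 to 1.19). In the last 6 lists edgeR and DESeq2 called 0, with 6, 1, 1, 3, 1 and 1 genes at an unadjusted edgeR p under 0.05 (513 of all 6521 genes).

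**Figure D5:**
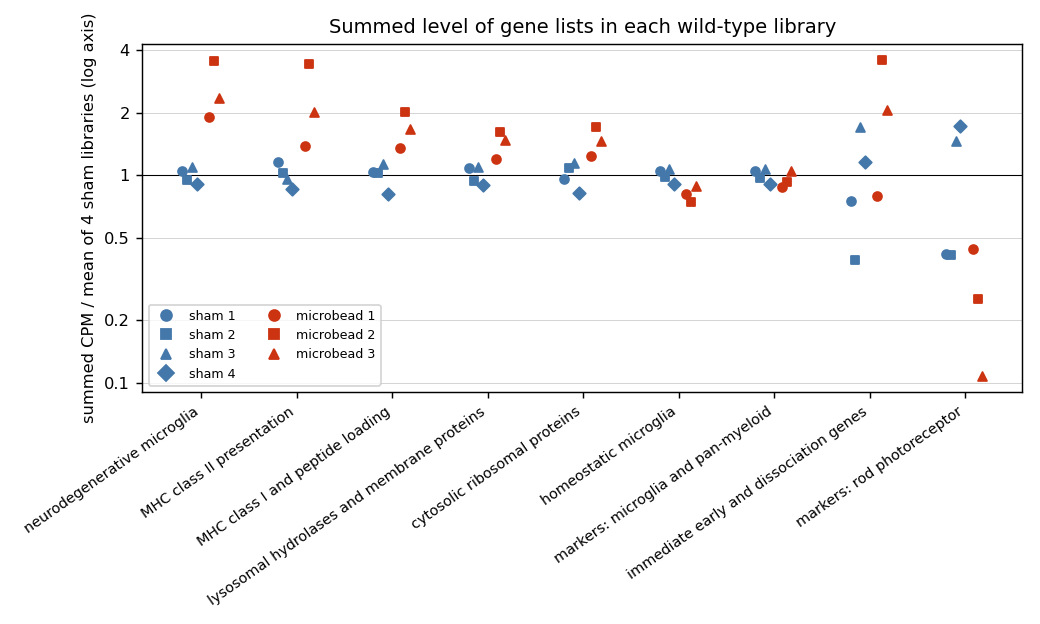
Summed CPM of 9 gene lists in each wild-type library, divided by the mean of the 4 sham libraries (log axis), sham in blue and microbead in red. Neurodegenerative, MHC and lysosomal sums lie above the sham libraries in all 3 microbead libraries (the lysosomal sums overlap without Ctsd), while immediate early and rod sums overlap and vary most among the sham libraries.

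Immediate early genes and markers of other cells were read in the same libraries. Of 28 tested immediate early genes 27 were positive with a median of 0.96, edgeR and DESeq2 called 0 (6 at an unadjusted edgeR p under 0.05), and in 1 all microbead libraries lay above the sham libraries (6.32% of all genes). The median was 0.31 without microbead library 2, 1.66 without sham library 3 and 1.80 without sham libraries 3 and 4. Dusp1, an early phosphatase gene, had 147, 3.49, 693 and 426 CPM in sham and 135, 2083 and 1035 CPM in microbead libraries. Microbead library 1 lay within the sham range for Dusp1. All 20 tested rod markers were negative with a median of -1.92, 0 called by edgeR or DESeq2 and 13 at an unadjusted edgeR p under 0.05, and their sums were 840.4 to 3488 CPM in sham and 901, 515 and 219 CPM in microbead libraries. Without sham libraries 3 and 4 the rod median was -0.61, and without microbead library 1 it was -2.56. The part of rod RNA in the results was not tested.

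Markers of recruited myeloid cells were low in both groups. Of 14 monocyte markers 2 were tested, and their summed level was 29.7 to 55.9 CPM in sham and 36.2 to 136 CPM in microbead libraries, of which Fn1 made up 49.9%. The defining gene Ly6c2 had 0, 1, 0 and 2 reads in sham and 2, 1 and 1 in microbead libraries, and Ccr2 had 7, 1, 0 and 5 against 5, 19 and 5 reads. Of 13 neutrophil markers, Camp, Elane, Ly6g, Mpo, Ngp, Retnlg and S100a9 had 0 reads in all 7 libraries, and Csf3r made up 92.8% of the sum of 247 to 301 and 268 to 295 CPM. Of 17 lymphocyte markers 4 (Gzma, Gzmb, Igkc and Trac) had 0 reads, with sums of 202 to 240 and 145 to 210 CPM. Border-associated macrophage markers summed to 169.9 to 299 CPM in sham and 185 to 264 CPM in microbead libraries, 5 of 14 tested, with Ms4a7 at 1.89 (edgeR adjusted p = 0.18). The part of these cells in the results was not tested.

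Markers of retinal cells other than rods were also low. Of 13 Müller glia and astrocyte markers 3 were tested, and Apoe, itself on that list, made up 97.1% of their sum. Without Apoe the sum was 94.4 to 161 CPM in sham and 132 to 287 CPM in microbead libraries. Aqp4 had 0 reads in all 7 libraries, Rlbp1 1, 2, 0 and 0 reads in sham and 0 in microbead libraries, and Gfap at most 2 reads in any library. Sums were 42.0 to 71.0 and 33.0 to 50.7 CPM for 11 cone markers, 21.6 to 71.0 and 17.3 to 40.6 CPM for 12 ganglion cell markers and 28.8 to 75.3 and 16 to 57.9 CPM for 12 vascular markers. Sums for bipolar, amacrine and pigment epithelium markers were 4.00 to 42.0 CPM over all 7 libraries. Erythrocyte markers were at 1.2 to 2.15 CPM in sham libraries, the worth of 1 read in each, and at 0 in microbead libraries.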

How the data were processed

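Bulk RNA of sorted retinal microglia was analysed in 4 wild-type sham and 3 wild-type microbead libraries, grouped by their labels. Per the file headers, the authors deposited for each library the Salmon output, with estimated counts per transcript, TPM and effective length in bases. The effective length is Salmon's own estimate and was used for length offsets and read densities. Also deposited was a table of gene TPM whose header names SMART-Seq2. Salmon 1.4.0, R 4.0.3, DESeq2 1.30.1 and the build mm10 are named in the submitters' processing notes. No annotation release, library type or read filter is given in the sources used here.

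GENCODE M21 was used to assign 116023 of 116945 transcripts to genes by identifier. The estimated counts of each gene's transcripts were added and rounded to whole numbers. Unassigned transcripts held 0.217 to 0.354% of the reads. Gene TPM computed in this way matched the deposited values in 99.73% of cases (relative tolerance 0.001). Without knowledge of strand, reads of overlapping and antisense genes cannot be told apart.

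The test was the quasi-likelihood F-test of edgeR 4.0.16 (R 4.3.3; TMM, filterByExpr) in 1 fit of all 15 libraries in 4 groups, in which the 8 Apoe-/- libraries share the estimate of the spread (common biological coefficient of variation 34.4%). P-values are two-sided and adjusted by Benjamini-Hochberg over 6521 genes, with a threshold of 0.05. SE is the absolute log2 fold change divided by the square root of its F statistic, not a fitted standard error. Fold changes of genes near 0 reads, and with them SE, depend on the prior count. DESeq2 1.42.0 and limma 3.58.1 were alternatives, as were other filters, scalings, length offsets, log2 of TPM plus 1 or 0.1, the 7 wild-type libraries alone and leaving out each library. No 2 libraries of the same wild-type group agreed within sampling noise (chi-square per degree of freedom 2.21 or more). At 3 reads as the limit, a gene at 0 reads could still reach 3.60 to 6.45 CPM in a sham and 3.00 to 4.35 CPM in a microbead library; such limits cover counting error only.

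The genes, the 32 gene lists, the 14 marker lists and the motifs were chosen with earlier results of these data known, so lists are described by counts and medians with no test. Named were the called genes, the 12 genes in each direction with the smallest p, and in each list the called members, up to 4 with the smallest p and up to 3 with the highest level, as well as cell type markers; some genes under that rule are not reported here. Members outside that rule (Vim, Bhlhe40, Lgals1, C3 and other genes that were not tested) were chosen after their reads were seen.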

Additional observations from a re-analysis of the deposited data

Results flagged for a closer look

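Among 103 values looked at, 8 had 1 wild-type sham library far from the other 3, by Dixon's 95% critical value for 4 samples. Chance gives about 1 such group in 20. The microbead group, with 3 libraries, was not examined in this way. In sham library 4, Gpnmb was high at 23.7 CPM, and the cell cycle inhibitor gene Cdkn1a was low at 2.15 CPM. In sham library 3, the ferritin gene Fth1 (947 CPM) and the stress factor gene Atf3 (25.2 CPM) were high. In sham library 2, Gm49339 (3.49 CPM, from 2 reads) and H2-Q6 (29.7 CPM) were high and P2ry12 (603 CPM) was low. In sham library 1, Gpr34 was high at 447 CPM.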

How the results depend on the processing

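The 13 calls of edgeR varied with the processing. The count stayed within 1.5 times with DESeq2 size factors (13), with TMM computed without the satellite models (13), with length offsets (10) and in 2 settings added after seeing the data: TMM on genes above the receptor-gene background (13) and tests of those genes alone (14). It was 36 with DESeq2, 7 with limma voom, 124 with no filter on low counts (87 higher, 37 lower), 25 with the stricter filter, 33 with the 7 wild-type libraries alone, and 87 and 22 on log2 TPM with pseudocounts of 1 and 0.1. The 2 TPM scales moved the median over all genes by 0.59 and 0.74, and fold changes were taken relative to it. The TPM calls were tests against 0, not against that median, so their numbers include this shift. Leaving out 1 library at a time, Apoe-/- libraries included, gave 0 to 29 calls. Without sham libraries 3 and 4 together, an alternative added after seeing the data, edgeR called 0 genes, with 376 at an unadjusted p under 0.05. The cause of these changes was not tested.

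A fit with the replicate number as a block gave 7 calls, 6 of them shared. Deviations of same-numbered wild-type libraries correlated at -0.05, -0.09 and -0.01, and no library correlated best with its own number. With so few libraries this cannot exclude that same-numbered retinas were paired, and the labels do not say. The main fit treated the samples as unpaired.

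The satellite share was lower by -20.3 to -13.9 percentage points when 1 library was left out, with exact permutation p-values of 0.0667 to 0.1 where the smallest possible is 0.05 or 0.0667, and by -16.1 as a share of all reads. Over 29 alternatives, none of the 100 genes named from the fit changed direction. All 13 called genes lost the call in at least 1 alternative, and 51 genes gained one. Depth limits genes of few reads.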

Other observations

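Some genes of the lists that did not pass the filter on low counts had most of their reads in the microbead libraries, chiefly in library 2. Il1b had 0, 1, 5 and 0 reads in sham and 4, 40 and 10 reads in microbead libraries. Anxa2, a membrane-binding annexin gene, had 1, 1, 8 and 3 reads in sham and 10, 77 and 30 in microbead libraries. The complement gene Cfb had 0, 0, 0 and 2 reads in sham and 0, 31 and 2 in microbead libraries, so its reads came nearly all from 1 retina. The heme oxygenase gene Hmox1 had 8, 8, 11 and 4 reads in sham and 9, 52 and 19 in microbead libraries. These genes were chosen after their reads were seen, and no test was made.

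The macrophage genes Pf4 and Cd163, chosen after their reads were seen, went the other way at low counts. They are 2 of 14 border-associated macrophage markers. Of the 5 tested markers of that list, 3 were above 0 and 2 below, with a median log2 fold change of 0.66. Pf4 had 7, 8, 8 and 0 reads in sham and 0, 1 and 1 in microbead libraries, and Cd163 had 7, 4, 8 and 4 reads in sham and 0, 1 and 1 in microbead libraries. Pf4, like Gp9, is also a gene of platelets. Mrc1, another macrophage gene, had 14, 6, 19 and 1 reads in sham and 4, 8 and 4 in microbead libraries, and the groups overlapped.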
